A study of Mus musculus with 20 samples.

Results

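The RNA levels of 9 aquaporin genes (Aqp1, Aqp2, Aqp3, Aqp4, Aqp6, Aqp7, Aqp8, Aqp9, and Aqp11) were followed across 5 mouse organs and between Nsun6-KO and WT mice. They were taken by gene symbol from a count table of 55401 genes, and each symbol occurred in 1 row. Heart, kidney, spleen, liver, and small intestine of female mice aged 8 weeks had been sequenced, with 2 WT and 2 KO libraries for each organ and 20 libraries in all. The KO strain was made on the C57BL/6J background by deleting exons 3 and 4 of Nsun6, an enzyme that places 5-methylcytosine on RNA, and homozygotes came from heterozygous parents. No other allele or agent was named for any group. The smallest library held 15897446 counts and the largest 44508197, around a median of 28513950. The study calls the replicates biological, but neither its text nor the labels say which libraries share an animal, so that the p-values measure only the spread between these libraries.

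Aquaporins are membrane channels that let water cross along an osmotic gradient. The water channels of the family pass mainly water, whereas the aquaglyceroporins Aqp3, Aqp7, and Aqp9 also pass glycerol and other small solutes, and Aqp11 is a divergent member that sits in the endoplasmic reticulum. In the kidney Aqp1 serves the proximal tubule and the thin descending limb, Aqp2 is the channel that vasopressin moves to the apical membrane of collecting duct principal cells, and Aqp3 and Aqp4 form the basolateral exit of the same cells. In the liver Aqp9 takes up glycerol for gluconeogenesis and Aqp8 is found on canalicular and inner mitochondrial membranes.

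In the coordinates of GRCm38, Aqp2 lies on chromosome 15 from 99579055 to 99584547 and Aqp6 on the same strand from 99601400 to 99605477. Between them lies Aqp5, 6234 bp from Aqp2 and 6570 bp from Aqp6. Aqp7 (chromosome 4, 41033074 to 41048139) and Aqp3 (41092722 to 41098183) are also neighbours, 44582 bp apart. Aqp1 lies on chromosome 6 from 55336432 to 55348555, Aqp9 on chromosome 9 from 71110659 to 71168682, and Aqp11 and Aqp8 far apart on chromosome 7 from 97724006 to 97738289 and from 123462291 to 123468004. No exon base of these genes was shared with another gene of the count table. RefSeq promoter windows, which run from 250 bases before to 50 bases after a start site, were matched for 8 of the 9 members. Those of the kidney genes Aqp2, Aqp6, and Aqp3 are printed here because these genes shared their lowest and their highest kidney library, as described further on. All are in the direction of transcription, in lower case with motif matches in capitals.
Aqp2, chr15:99578806-99579105, plus strand: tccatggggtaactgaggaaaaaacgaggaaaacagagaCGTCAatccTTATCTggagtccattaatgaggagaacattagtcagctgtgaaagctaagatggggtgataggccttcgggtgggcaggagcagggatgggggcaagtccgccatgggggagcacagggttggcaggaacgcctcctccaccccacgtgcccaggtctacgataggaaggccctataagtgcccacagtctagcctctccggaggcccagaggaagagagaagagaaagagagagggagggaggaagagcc
Aqp6, chr15:99600950-99601249, plus strand: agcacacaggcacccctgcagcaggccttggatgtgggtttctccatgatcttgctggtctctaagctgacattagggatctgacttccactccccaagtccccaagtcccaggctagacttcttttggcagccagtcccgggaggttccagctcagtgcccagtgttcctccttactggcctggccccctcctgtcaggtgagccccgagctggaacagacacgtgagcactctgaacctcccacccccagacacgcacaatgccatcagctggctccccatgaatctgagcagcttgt
Aqp3, chr4:41098134-41098433, minus strand: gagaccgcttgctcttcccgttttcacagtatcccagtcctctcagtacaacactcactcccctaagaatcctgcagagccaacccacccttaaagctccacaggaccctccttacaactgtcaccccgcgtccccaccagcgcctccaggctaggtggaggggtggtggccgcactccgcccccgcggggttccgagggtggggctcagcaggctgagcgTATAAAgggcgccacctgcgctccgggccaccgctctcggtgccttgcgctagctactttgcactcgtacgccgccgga
The capitals in Aqp2 mark a core of the cyclic AMP response element (TGACG) and a GATA site (AGATAA), both found on the opposite strand, at positions -211 and -202 from the start site. TGACG was present on either strand in 20.8% of 32851 RefSeq promoter windows and AGATAA in 11.2%. The capitals in Aqp3 mark a TATA box (TATAAA) at position -29, held by 13.6% of windows. The Aqp6 window held none of the motifs searched on both strands. These also included CCACACCC, GTTAAT, and CAAAGTCCA, found in 3.56%, 7.10%, and 0.475% of windows, and the full HNF1 site, which contains GTTAAT and was found in 0.00913%. The RefSeq start site of Aqp6 lies before the start of the gene in the count table.

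The liver and heart labels fitted their markers, since hepatocyte genes summed to 98260 RPKM or more in each liver library and cardiomyocyte genes to 21770 or more in each heart library (RPKM are read counts scaled by exon length and by library size after TMM normalization). Some libraries nevertheless stood apart from their group. The small intestine replicates differed in gut segment markers. Fabp6, an ileal bile acid binding protein, stood at 14220 RPKM in WT replicate 1 and 13070 in KO replicate 1, but at 0.497 and 0.861 in replicates 2. Gata4, a factor of the proximal small intestine, stood at 0.186 and 0.474 RPKM in replicates 1 and at 26.6 and 21.03 in replicates 2. The summed level of 7 distal markers was 15610 RPKM in WT and 14950 in KO replicate 1, against 278.1 and 309.1 in replicates 2, and Fabp6 was the most abundant of them. Heart muscle genes were high in the KO replicate 1 library of the small intestine, where 8 cardiomyocyte genes summed to 181.5 RPKM against 14.03 to 16.04 in the other 3. In the spleen, 10 hepatocyte genes summed to 1733 RPKM in WT replicate 2 against 7.06 in WT replicate 1, 64.9 in KO replicate 1, and 92.1 in KO replicate 2, led by Alb. In the liver, WT replicate 1 had 11.3 RPKM of cardiomyocyte genes against 1.04 to 1.93 in the other 3 libraries. In the kidney the proximal tubule list summed to 1582 RPKM in WT replicate 1 and to 840.9 in WT replicate 2, with 1355 and 979.0 in KO replicates 1 and 2.

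Each organ carried its own set of aquaporins. The 9 members summed to 338.5 RPKM in the kidney, 221.7 in the liver, 183.8 in the heart, 73.1 in the spleen, and 56.4 in the small intestine, as means of 4 libraries. Aqp1 made up 94.1% of this sum in the spleen, 93.1% in the heart, and 56.2% in the kidney, but 19.7% in the liver, where Aqp9 (48.7%) and Aqp8 (28.9%) were ahead of it. In the small intestine Aqp7 made up 37.1% over both genotypes, but its mean was 31.7 RPKM in KO and 10.2 in WT, where Aqp1 had 12.04, and it was first in neither WT library. Fewer cells of a type and less RNA per cell cannot be told apart in these bulk samples. Levels between genes are per length of merged exons, and this length is 4.86 times the median coding transcript for Aqp4 and 2.52 times for Aqp11, so that per transcript length Aqp4 stood at 69.0 rather than 14.2 in the kidney. On the TPM scale, levels relative to RPKM shifted by 0.65 (liver) to 1.85 (spleen) on the log2 scale, the highest organ was the same for all 9 members, and the order of low organs differed for Aqp8 (spleen above kidney) and Aqp11 (spleen above heart).

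Organ specificity was described with the tau index on log2(RPKM + 1), which is 0 for equal levels in all organs and 1 for a gene of 1 organ. The members ran from 0.247 for Aqp1 to 0.998 for Aqp6, with a median of 0.822, while the median of 17630 genes was 0.434. In edgeR's quasi-likelihood F test of any difference between organs, with all 20 libraries in 1 fit, all 9 members were called, which required a fold change over 2 and an adjusted p (Benjamini-Hochberg) under 0.1. Their adjusted p ran from 1.9e-09 for Aqp9 to 0.000125 for Aqp8, but 85.5% of the 23159 genes tested were called too. Of the 90 pairs of a member and 2 organs, 66 were called. Between 5 and 8 members were called in each pair of organs. Kidney against liver, spleen, and small intestine had 8 each, where 34.7%, 50.5%, and 45.7% of all genes were called. Kidney against heart had 6 (38.0% of all genes), as had heart against liver (44.5%) and heart against small intestine (53.5%). Spleen against heart (52.6%) and spleen against small intestine (49.5%) had 7, whereas liver against spleen (52.2%) and liver against small intestine (46.3%) had 5. Aqp2 and Aqp6 passed the filter on low counts only through their kidney libraries. Their calls in the kidney pairs and in the F test are therefore no separate support for their organ pattern. Of the 36 steps between neighbouring organs in the order of a member's levels, 18 were called. The order came from the same values that were tested, and no share of all genes stands beside this count.

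**Figure D1:**
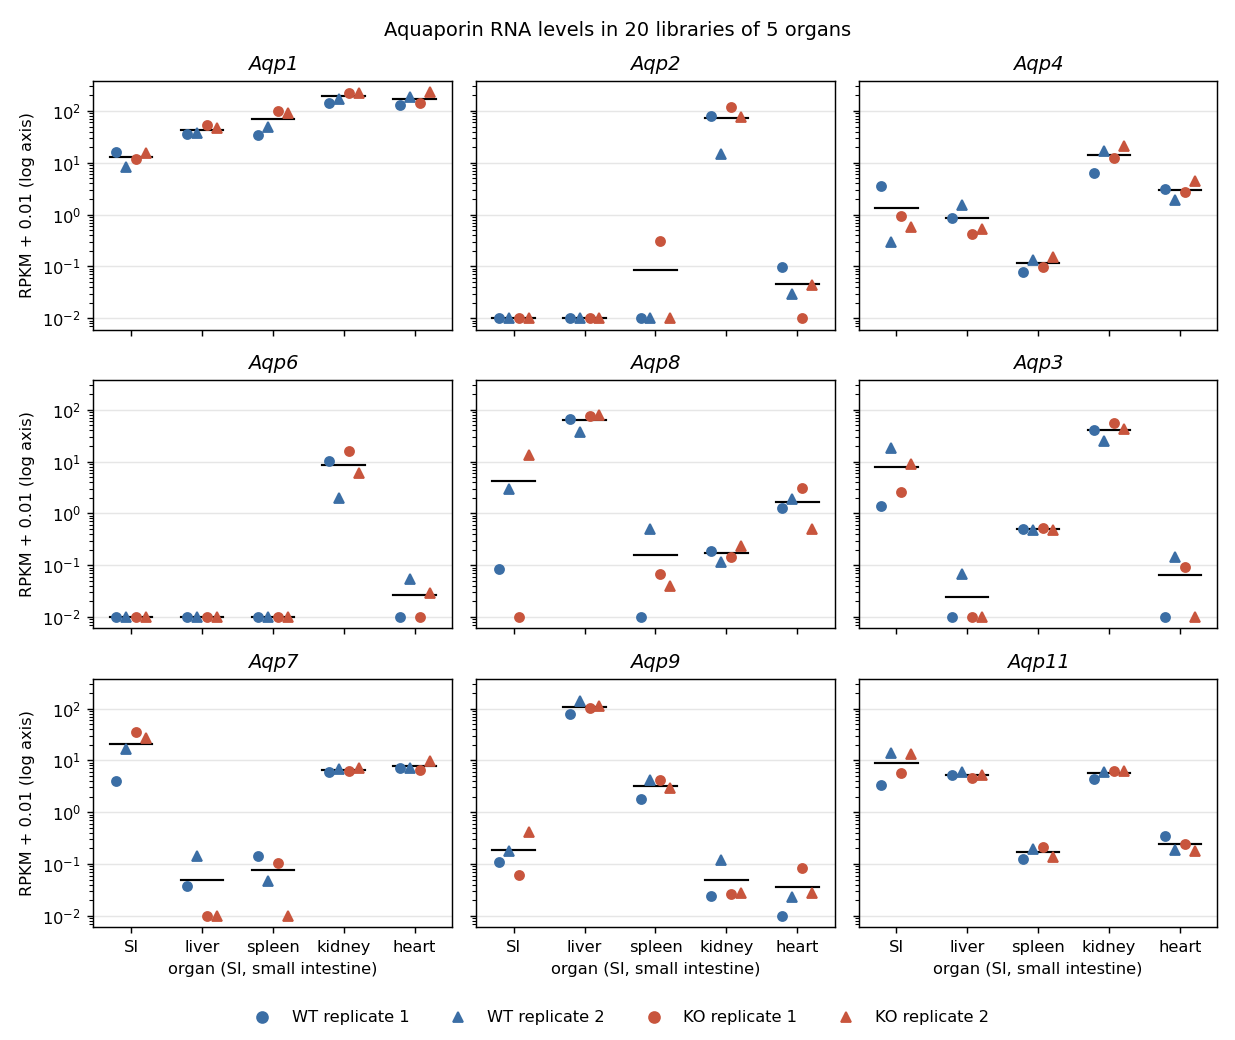
Level of each aquaporin in the 20 libraries, as RPKM + 0.01 on a log axis, by organ. Points are single libraries (blue WT, red KO; circles replicate 1, triangles replicate 2), lines are means of the 4 libraries of an organ, and points at 0.01 have 0 counts. Aqp1 is present in all organs, Aqp2 and Aqp6 stand high in the kidney, and Aqp8 and Aqp9 in the liver.

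Among the water channels, Aqp1, the first aquaporin described and the one of red cells, capillary endothelium, and the proximal nephron, was the most widely present. It stood at 190.1 ± 42.1 RPKM (SD, n = 4, WT and KO together) in the kidney, 171.1 ± 44.2 in the heart, 68.8 ± 32.6 in the spleen, 43.6 ± 8.31 in the liver, and 12.8 ± 3.63 in the small intestine. Kidney and heart did not differ beyond their spread, with a log2 difference of 0.13 (SE 0.25, adjusted p = 0.736), nor was spleen against liver called (0.55, SE 0.25, adjusted p = 0.0701, under 2-fold). Heart against spleen (1.43, SE 0.25, adjusted p = 0.000233) and liver against small intestine (1.75, SE 0.25, adjusted p = 5.26e-05) were called by edgeR.

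Aqp2 was a kidney gene. Its level there was 81.4 and 15.0 RPKM in WT replicates 1 and 2, and 119.2 and 74.7 in KO. No count of it was found in any library of the small intestine or the liver, which puts the kidney at least 938.7-fold above the small intestine and at least 771.9-fold above the liver, taking 3 counts per library as the floor. The spleen had 19 counts in KO replicate 1 and 0 in the other 3 libraries, and no heart library had more than 2. The kidney mean was 72.6 RPKM and that of the spleen 0.0761, a difference called by edgeR (adjusted p = 8.97e-05). Aqp2 passed the filter on low counts only through its kidney libraries, so that this call is no separate support. With 0 counts in 3 of 4 spleen libraries no fitted size is given.

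Aqp6, an intracellular channel of acid-secreting intercalated cells that also passes anions, followed the same organ pattern at a lower level. It stood at 10.3 and 2.02 RPKM in WT and 16.3 and 6.14 in KO kidney libraries. There were 0 counts in the small intestine, liver, and spleen, so that the kidney was at least 192.0-fold, 157.9-fold, and 306.7-fold higher, and at most 4 counts in a heart library. The difference between kidney and heart was called by edgeR (adjusted p = 0.000152). Aqp6, too, passed the filter on low counts only through its kidney libraries, so that this call is no separate support. With 0 counts in 2 of 4 heart libraries no fitted size is given.

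Aqp4, a basolateral channel of the collecting duct that is also found on muscle and on parietal cells of the stomach, was highest in the kidney with 14.2 ± 6.52 RPKM (SD, n = 4). The heart followed with 3.02 ± 1.03, below the kidney by 2.23 on the log2 scale (SE 0.59, adjusted p = 0.00758). Small intestine (1.34 ± 1.53) and liver (0.837 ± 0.505) did not differ beyond their spread (log2 difference 0.68, SE 0.58, adjusted p = 0.364), and the spleen was lowest with 0.104 ± 0.0325. In the small intestine 3.60 RPKM in WT replicate 1 stood against 0.280 to 0.937 in the other 3 libraries.

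Aqp8 was a liver gene with 65.6 and 36.7 RPKM in WT and 74.0 and 79.6 in KO libraries. The liver exceeded the small intestine by 4.31 on the log2 scale (SE 1.33, adjusted p = 0.0161). The small intestine mean of 4.13 ± 6.42 RPKM (SD, n = 4) rested on replicates 2, with 2.91 in WT and 13.5 in KO, against 0.0735 and 0 in replicates 1. The heart had 1.68 ± 1.10 RPKM and was not different from the small intestine beyond this spread (log2 difference 0.94, SE 1.22, adjusted p = 0.548).

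Of the aquaglyceroporins, Aqp9 had the highest single level. It stood at 79.5 and 138.9 RPKM in WT and 103.7 and 110.0 in KO liver, and the liver was above the spleen by 5.07 on the log2 scale (SE 0.59, adjusted p = 7.83e-06). The spleen held 1.82 and 4.09 RPKM in WT and 4.16 and 2.88 in KO, and was in turn above the small intestine by 4.22 (SE 0.59, adjusted p = 5.31e-05). In the spleen, WT replicate 2 was the library with 1733 RPKM of hepatocyte genes, and its Aqp8 level was 0.496 RPKM against at most 0.0575 in the other 3 spleen libraries. The 10 neutrophil genes, from a cell type that carries Aqp9, summed to 423.9 and 857.7 RPKM in WT and 256.3 and 620.4 in KO spleen. They were led by S100a9, and the library with the lowest sum, KO replicate 1, had the highest Aqp9. The part of either list in the Aqp9 level was not tested.

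Aqp3 joined a kidney and a gut pattern. Its levels were 40.3 and 24.7 RPKM in WT and 55.1 and 41.8 in KO kidney, and 1.38 and 18.6 in WT and 2.56 and 9.11 in KO small intestine. Every kidney library was above every small intestine library, and the log2 difference was 2.38 (SE 0.73, adjusted p = 0.0162). The spleen was steady at 0.490 ± 0.0230 RPKM (SD, n = 4), and heart and liver libraries had at most 9 counts.

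Aqp7, the channel through which fat cells release glycerol, was present in 3 organs. It stood at 20.9 ± 13.8 RPKM (SD, n = 4) in the small intestine, 7.64 ± 1.43 in the heart, and 6.54 ± 0.520 in the kidney, and at most 0.136 in any spleen or liver library. Heart and kidney did not differ beyond their spread (log2 difference 0.22, SE 0.54, adjusted p = 0.816). The small intestine was called above the heart (1.23, SE 0.55, adjusted p = 0.0716), but the libraries overlapped. The call was lost without WT replicate 2 of the small intestine (0.66, adjusted p = 0.315), without KO replicate 1 of it (1.13, adjusted p = 0.140), and without WT replicate 1, WT replicate 2, or KO replicate 1 of the heart (adjusted p = 0.133, 0.117, and 0.162). The fat cell list summed to 33.9 and 359.9 RPKM in WT and 37.5 and 163.5 in KO heart, while Aqp7 there was 7.17 and 7.22 in WT and 6.44 and 9.72 in KO. Ucp1 of brown fat, for example, was 0.0760 and 39.9 RPKM in WT and 0 and 3.46 in KO heart. The part of fat cells in the Aqp7 level was not tested.

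Aqp11 was present mainly in 3 organs, with 9.04 ± 5.35 RPKM (SD, n = 4) in the small intestine, 5.74 ± 0.876 in the kidney, and 5.26 ± 0.502 in the liver. Single small intestine libraries ran from 3.31 to 13.85 RPKM. Neither the small intestine against the kidney (log2 difference 0.66, SE 0.38, adjusted p = 0.172) nor the kidney against the liver (0.12, SE 0.38, adjusted p = 0.895) differed beyond the spread. The liver stood above the heart by 4.54 (SE 0.45, adjusted p = 1.43e-06). Heart and spleen, at 0.231 and 0.160 RPKM, did not differ (0.50, SE 0.41, adjusted p = 0.323).

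The 4 other family genes of the table were low in most libraries. Aqp5, best known from salivary and sweat glands, had 9.55 and 0.0796 RPKM in WT and 4.65 and 0.920 in KO kidney, from 862, 5, 343, and 67 counts. In the small intestine 133 of its 134 counts were in WT replicate 2. Aqp12, a gene of pancreatic acinar cells, had at most 4 counts in a library, and Mip, the lens aquaporin, at most 26. The pseudogene Aqp10-ps had at most 12. Of these, Aqp5 was tested between KO and WT in the kidney, and Mip and Aqp10-ps in the spleen, and none was called by edgeR, with unadjusted p from 0.417 to 0.970.

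Within the small intestine, several members split by replicate number, together with the segment markers and not by genotype. Aqp3 was 13.4-fold higher in replicate 2 than in replicate 1 of WT and 3.56-fold higher in KO. Aqp11 was 4.18-fold higher in WT and 2.36-fold higher in KO, and Aqp8 was 39.6-fold higher in WT on 4 counts in replicate 1, and went from 0 to 519 counts in KO. Aqp4 was lower in replicates 2, at 0.0778 and 0.593 times replicate 1. Aqp1 and Aqp7 did not keep 1 direction, with ratios of 0.511 and 4.20 in WT and 1.31 and 0.771 in KO. With 2 libraries for each number these ratios are a description without a test. Markers of the large intestine summed to 29.2 RPKM in WT replicate 1 and 7.82 in KO replicate 1 and to 0.379 and 0.239 in replicates 2, with Car1 the most abundant, and their part in the Aqp8 level was not tested.

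**Figure D2:**
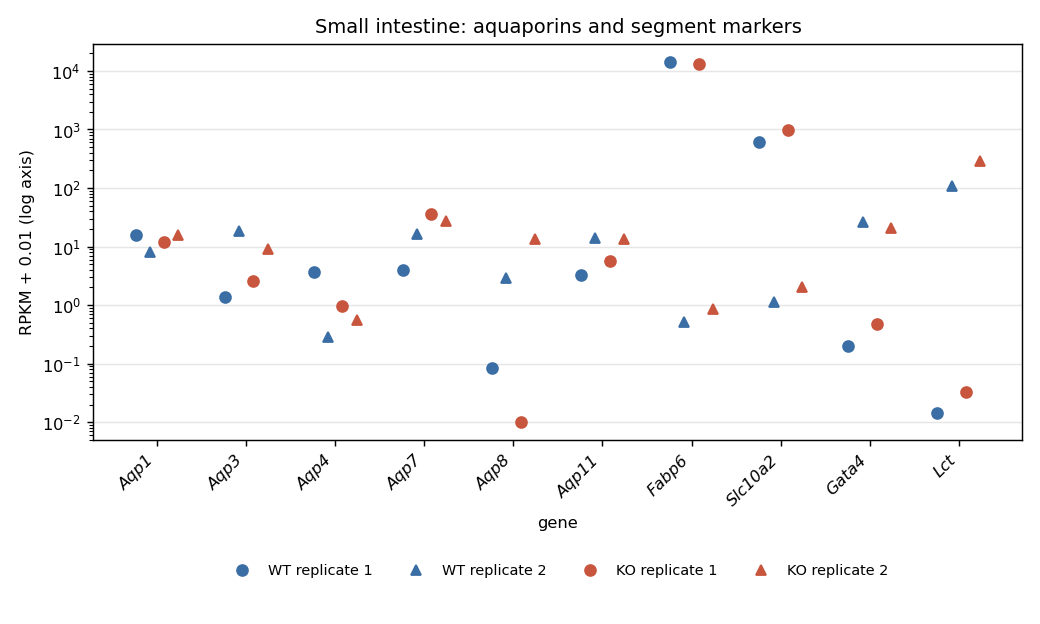
Levels of 6 aquaporins and 4 segment markers in the 4 small intestine libraries, as RPKM + 0.01 on a log axis (blue WT, red KO; circles replicate 1, triangles replicate 2). The ileal genes Fabp6 and Slc10a2 are high in replicates 1 and the proximal genes Gata4 and Lct in replicates 2, and Aqp3, Aqp8, and Aqp11 are higher in replicates 2 of both genotypes.

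The kidney libraries differed in several aquaporins of the collecting duct. Aqp2 spanned 15.0 to 119.2 RPKM, Aqp6 2.02 to 16.3, and Aqp3 24.7 to 55.1, and WT replicate 2 was the lowest and KO replicate 1 the highest for each of them. The ratio of Aqp2 to Aqp6 was 7.88 and 7.45 in WT replicates 1 and 2, and 7.32 and 12.2 in KO. That of Aqp2 to Aqp3 was less steady, at 2.02 and 0.608 in WT and 2.16 and 1.79 in KO. Aqp4 did not follow them, with 6.20 and 17.1 RPKM in WT and 12.1 and 21.3 in KO. Nor did Aqp1, with 140.2 and 170.4 in WT and 223.6 and 226.4 in KO, while Aqp7 and Aqp11 stayed within 5.93 to 7.06 and 4.44 to 6.33 RPKM. The 8 principal cell markers summed to 120.9 and 76.7 RPKM in WT and to 142.7 and 82.5 in KO, which put the libraries in the same order as Aqp2. Tfcp2l1 was the most abundant, and none was at 0 over the organ. Single markers did not move alike. Scnn1b, a subunit of the epithelial sodium channel, was 18.7 and 5.49 RPKM in WT and 19.1 and 14.6 in KO, but Fxyd4, a regulator of the sodium pump, was 18.1 and 35.9 in WT and 26.7 and 17.5 in KO. Intercalated cell markers summed to 203.7 and 192.5 RPKM in WT and to 169.0 and 172.4 in KO, a narrower range than that of Aqp6. The loop of Henle list, led by Umod, summed to 742.0 and 1161 in WT and to 1314 and 1138 in KO. The part of these lists in the aquaporin levels was not tested.

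**Figure D3:**
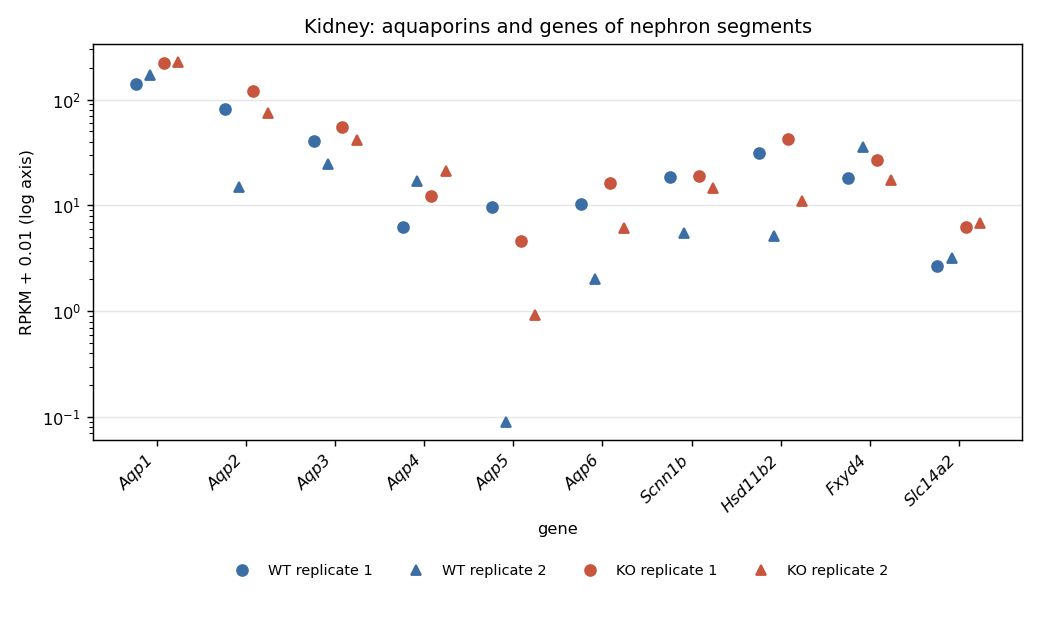
Levels of 6 aquaporins and 4 nephron genes in the 4 kidney libraries, as RPKM + 0.01 on a log axis (blue WT, red KO; circles replicate 1, triangles replicate 2). The WT replicate 2 library is lowest for Aqp2, Aqp3, Aqp5, Aqp6, Scnn1b, and Hsd11b2, but not for Aqp4 or Fxyd4.

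The genes of the pathway that controls Aqp2 summed to almost the same level in every kidney library. The 22 genes of the vasopressin response (receptor, cyclic AMP, and vesicle genes) summed to 276.5 and 278.4 RPKM in WT and to 275.7 and 275.4 in KO kidney, with Prkar1a, a regulatory subunit of protein kinase A, the most abundant at 52.1. All 22 were tested and 0 were called, as were 0% of all genes in the kidney. At an unadjusted p under 0.05 there were also 0, where 0.638% of all genes reached it. With 7 genes at a higher and 15 at a lower mean in KO, the median of log2 fold changes was -0.09, against -0.03 over all genes. Prkar2b, another regulatory subunit, had the smallest p, with a log2 fold change of -0.62 (SE 0.44). Some single genes were less steady than the sum and had wide errors, such as Adcy6 (-0.19, SE 1.13) and Vamp2 (-0.0053, SE 0.81). Avpr2, the vasopressin receptor, had only 0 to 18 counts in a kidney library, and 81.3% of its exon bases lie under exons of Arhgap4 on the opposite strand, so that reads of both genes cannot be told apart if strand was not used, and the counting command stored with the table names no strand option although the methods state one. In the other organs 21 or 22 of these genes were tested and 0 were called. At an unadjusted p under 0.05 there were 2 in the liver, where 4.70% of all genes reached it (Adcy6, an adenylyl cyclase, with -0.79, and Akap7, a kinase anchor, with -0.87 on the log2 scale), 1 in the spleen (Prkar2b, 0.75), where 5.14% did, and 0 in the small intestine and the heart.

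The comparison of Nsun6-KO with WT asked whether loss of the enzyme alters these genes. Nsun6 itself was counted in all libraries at 0.663 to 1.96 RPKM, with log2 fold changes between -0.67 (SE 0.43, kidney) and 0.08 (SE 0.34, spleen) and edgeR adjusted p from 0.9995 to 1. Since the count covers all exons and the deletion only exons 3 and 4, the genotypes cannot be read from it. Each organ was fitted on its own with edgeR. No member was called in any organ. Low counts removed some members, which left 7 for the small intestine, 5 for the liver, 6 for the spleen, 7 for the kidney, and 5 for the heart. Of these, 2 in the liver (Aqp1 and Aqp4) and 1 in the spleen (Aqp1) had an unadjusted p under 0.05, and 0 elsewhere. Over all genes, 0% were called for small intestine, kidney, and heart, 0.0509% for liver, and 0.223% for spleen. At an unadjusted p under 0.05 the shares were 2.39% (small intestine), 4.70% (liver), 5.14% (spleen), 0.638% (kidney), and 0.703% (heart). DESeq2 called 1 member, Aqp1 in the spleen, where it called 1.35% of all genes, and 0 in the other organs, where it called 0.334% (small intestine), 0.349% (liver), 0% (kidney), and 0.0107% (heart).

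**Figure D4:**
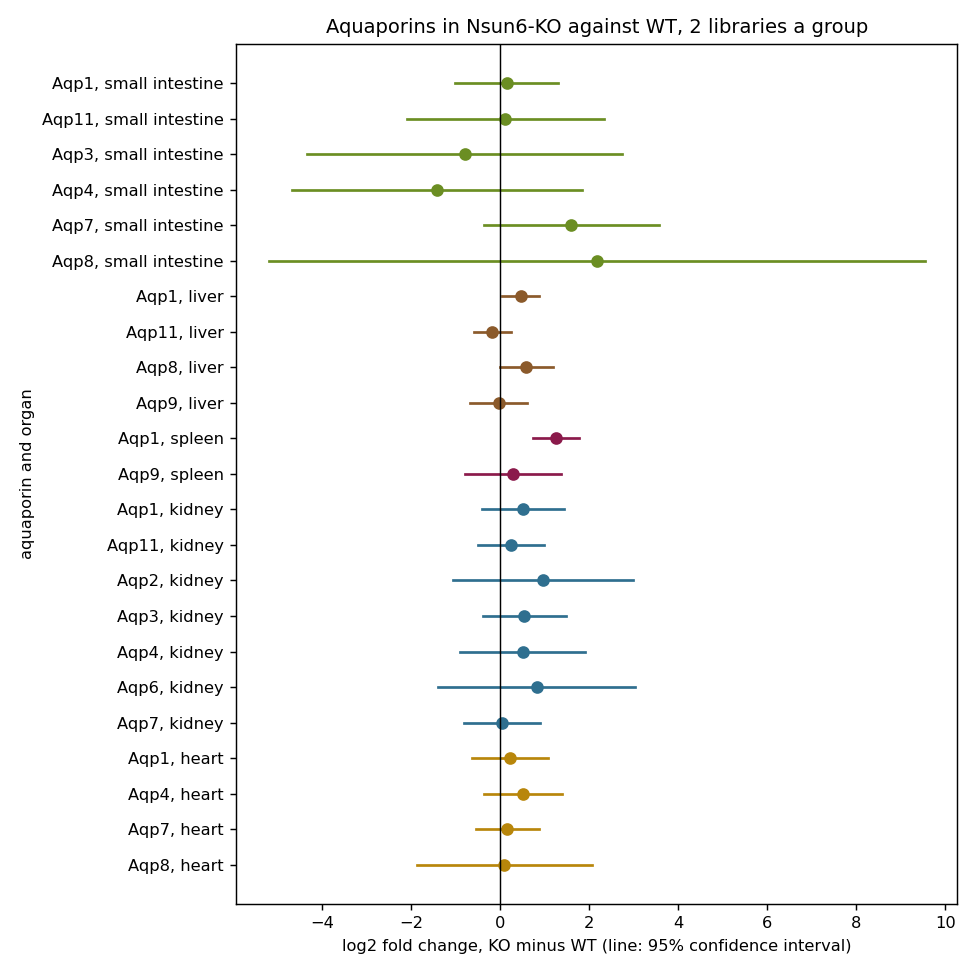
Log2 fold change (KO minus WT) of each aquaporin with a mean of at least 1 RPKM in the organ. Points are estimates of edgeR's quasi-likelihood fit of the organ with 2 libraries a group, lines 95% confidence intervals. Only the intervals of Aqp1 in the spleen and in the liver leave out 0, and the widest interval is that of Aqp8 in the small intestine.

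Both KO libraries lay above or below both WT libraries for 1 tested member of the small intestine (25.1% of all genes tested there), 4 of the liver (33.3%), 1 of the spleen (31.5%), 3 of the kidney (21%), and 0 of the heart (17.2%). The tested members had a median log2 fold change of 0.51 for kidney, 0.21 for spleen, 0.15 for heart, 0.14 for small intestine, and -0.04 for liver, while the medians over all genes lay between -0.03 and 0.01. All 7 members tested in the kidney had a higher mean in KO, none of them past the test. Beside them, 11 of 12 endothelial genes had a higher mean in KO kidney (median 0.33, 0 called), with sums of 75.2 and 118.6 RPKM in WT and 104.9 and 169.7 in KO, led by Plvap, and 9 of 9 fat cell genes tested had a lower one (median -1.41, 0 called), with sums of 58.02 and 76.03 in WT and 53.0 and 9.99 in KO, led by Cfd. Of the erythroid genes tested there, 8 of 9 had a higher mean in KO (median 0.42, 0 called), with sums of 1080 and 2069 RPKM in WT and 1794 and 1578 in KO, and of the loop of Henle genes 6 of 7 (median 0.16, 0 called). The part of these cells in the aquaporin levels was not tested.

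The largest change relative to its error was that of Aqp1 in the spleen. It stood at 33.9 and 48.9 RPKM in WT replicates 1 and 2, and at 101.3 and 91.4 in KO replicates 1 and 2. Both KO libraries were above both WT libraries, and the log2 fold change was 1.25 (SE 0.22, 95% interval 0.74 to 1.76) with an adjusted p of 0.132 in edgeR's quasi-likelihood test, which misses the threshold. DESeq2 gave 1.24 (SE 0.23, adjusted p = 3.22e-05). Without WT replicate 2, the library with hepatocyte RNA, edgeR gave 1.57 (adjusted p = 0.0210), in a fit that called 1.35% of all genes. In every fit that leaves out a library, the lone library of a group is assumed to vary like the 2 of the other group. Leaving out the other libraries gave 0.98 to 1.31, with adjusted p from 0.152 to 0.535. In the fit of all 20 libraries the value was 1.22 with an adjusted p of 1.

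Beside Aqp1, the 12 red cell genes of the erythroid list all had a higher mean in KO spleen. The list was chosen with earlier results of these data known, so that its counts are not independent of them. The paper had reported erythrocyte homeostasis among the terms enriched in genes upregulated in KO spleen. The median of the 12 genes was 1.44 on the log2 scale against 0.01 over all genes. The fit called 5 of the 12 as upregulated, where 0.223% of all genes were called in either direction. All 12 had an unadjusted p under 0.05, as had 5.14% of all genes. Among these were Slc4a1, the anion exchanger of red cells (46.7 in WT and 135.1 RPKM in KO, log2 fold change 1.57, SE 0.16), Epb42, a membrane skeleton protein (7.98 and 24.8, 1.67, SE 0.18), and Alas2, of heme synthesis (1.34, SE 0.18), with edgeR adjusted p of 0.0656 to 0.0839. Rhag, of the Rh complex, had almost the same p as Aqp1 and missed the threshold with it (1.57, SE 0.26, adjusted p = 0.132). The list summed to 15390 and 20830 RPKM in WT and to 34240 and 39400 in KO, led by the globin Hbb-bs, and no gene of it was at 0 over the organ. The count of called genes was 10 without WT replicate 2 (1.35% of all genes called), 6 without WT replicate 1 (1.86%), 4 without KO replicate 1 (0.105%), and 0 without KO replicate 2, a fit that called 0 genes of the whole table. The 12 endothelial genes, from the other main site of Aqp1, were all lower in KO, with a median of -0.37 and 0 called, and summed to 94.5 and 95.02 RPKM in WT and to 87.7 and 52.8 in KO. No gene of the fat cell or neutrophil lists was called in the same comparison. All 9 fat cell genes tested had a higher mean in KO (median 1.23, 0 called, 3 at an unadjusted p under 0.05), and the list summed to 29.3 and 20.2 RPKM in WT and to 58.3 and 51.1 in KO, led by Cfd. All 10 neutrophil genes had a lower mean in KO (median -0.61, 0 called, 2 at an unadjusted p under 0.05). The part of red cells and of these other cells in the Aqp1 level was not tested.

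**Figure D5:**
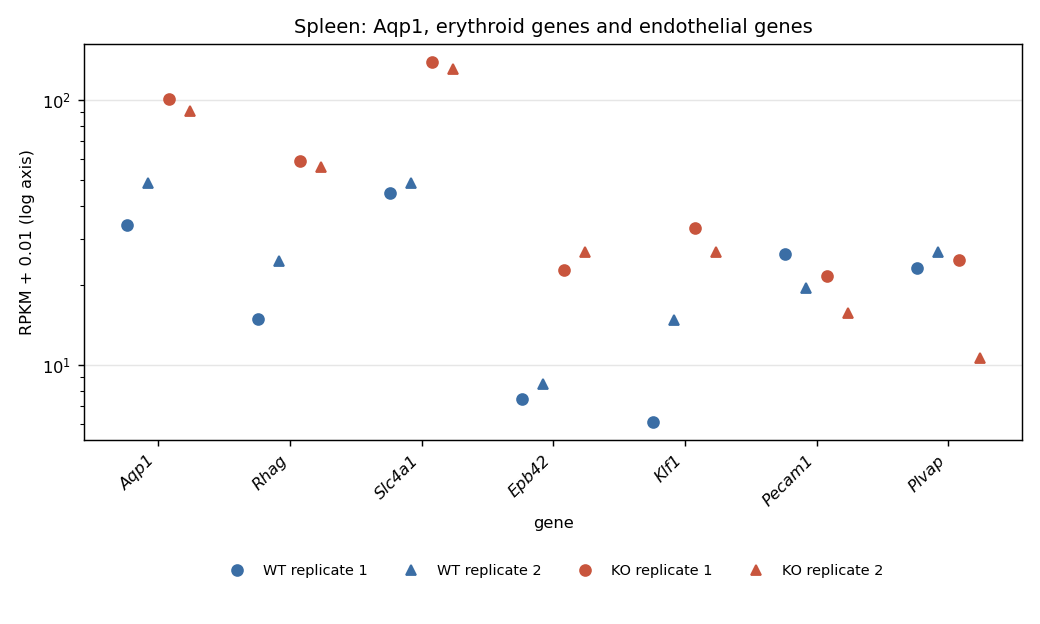
Levels of Aqp1, 4 erythroid genes, and 2 endothelial genes (Pecam1, Plvap) in the 4 spleen libraries, as RPKM + 0.01 on a log axis (blue WT, red KO; circles replicate 1, triangles replicate 2). Both KO libraries are above both WT libraries for Aqp1 and the 4 erythroid genes, which is not so for the endothelial genes.

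In the liver, Aqp1 was 36.2 and 37.3 RPKM in WT while KO had 53.5 and 47.3, and both KO libraries were above both WT libraries. The log2 fold change was 0.46 (SE 0.18, 95% interval 0.04 to 0.87) with an adjusted p of 0.9995 in edgeR. The erythroid list summed to 897.2 and 567.6 RPKM in WT liver and to 861.5 and 556.3 in KO, led by Hbb-bs. Of its 6 genes tested, 2 had a higher mean in KO and 0 were called. The endothelial list summed to 48.5 and 55.4 RPKM in WT and to 53.5 and 51.3 in KO. Of its 12 genes, 7 had a higher mean in KO and 0 were called. The part of these cells in the Aqp1 level was not tested. Aqp8 had a log2 fold change of 0.59 (SE 0.26, adjusted p = 0.9995), with WT replicate 2 below the other 3 libraries. Without WT replicate 1 it was 1.04 (adjusted p = 0.0174), in a fit with 1 WT library where 1.25% of all genes were called. Aqp9 differed little, with a log2 fold change of -0.04 and a 95% interval of -0.68 to 0.61, and so did Aqp11 (-0.18, interval -0.59 to 0.23). Aqp4 was low, at 0.862 and 1.54 RPKM in WT and 0.420 and 0.526 in KO from 54 to 181 counts (log2 fold change -1.34, SE 0.39, adjusted p = 0.947). It was called without WT replicate 1 (-1.72, adjusted p = 0.0432) and without the filter on low counts (-1.35, adjusted p = 0.0822). Cardiomyocyte genes, from a muscle type that carries Aqp4, summed to 11.3 and 1.93 RPKM in WT and to 1.04 and 1.27 in KO liver, led by Myl2. All 4 of them that were tested had a lower mean in KO (median -3.38, 0 called, 4 at an unadjusted p under 0.05), and their part in the Aqp4 level was not tested. The hepatocyte list had 0 of 10 genes called in the liver, 7 being higher in KO, and bile duct genes summed to 36.3 and 49.3 RPKM in WT and 34.2 and 47.5 in KO.

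Genes that release, phosphorylate, or use glycerol, the solute of Aqp7 and Aqp9, were not called in any organ, with 16 tested in each organ but the heart (14). At an unadjusted p under 0.05 there were 3 in the liver (4.70% of all genes), 1 in the spleen (5.14%), and 0 elsewhere. Of the 16 genes, 14 had a higher mean in KO small intestine, with a median of 0.47 on the log2 scale against 0.0037 over all genes. In the liver Lpl, lipoprotein lipase, had the smallest p, with 7.002 RPKM in WT and 3.23 in KO (log2 fold change -1.12, SE 0.19, adjusted p = 0.306 in edgeR), and Pck1, of gluconeogenesis, was the most abundant with 818.1 RPKM. In the small intestine Aqp7 was 3.92 and 16.4 RPKM in WT and 35.8 and 27.6 in KO. Both KO libraries were above both WT libraries, with a log2 fold change of 1.60 (SE 0.74, 95% interval -0.38 to 3.57, adjusted p of 0.9999 in edgeR). Its highest library, KO replicate 1, was the one with 181.5 RPKM of heart muscle genes. In the same comparison 12 of 12 endothelial genes (median 1.14) and 7 of 7 erythroid genes tested (median 0.55) had a higher mean in KO, and 9 of 9 hepatocyte genes tested a lower one (median -1.36), with 0 called in each list. The endothelial list summed to 6.51 and 9.95 RPKM in WT and to 7.04 and 34.4 in KO replicates 1 and 2. The erythroid list summed to 32.8 and 80.0 in WT and to 35.2 and 159.8 in KO, so that KO replicate 2 was highest for both lists. The part of these cells in the Aqp7 level was not tested. The intervals of Aqp3 (-4.35 to 2.74), Aqp4 (-4.68 to 1.83), Aqp8 (-5.20 to 9.54), and Aqp11 (-2.10 to 2.33) in the small intestine come from a fit without the replicate number. These genes and the segment markers split by that number. The interval of Aqp7 comes from the same fit, and Aqp7 did not keep 1 direction between replicate numbers.

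In the kidney, the log2 fold changes were 0.51 (SE 0.37) for Aqp1, 0.96 (SE 0.80) for Aqp2, 0.54 (SE 0.37) for Aqp3, 0.50 (SE 0.56) for Aqp4, 0.82 (SE 0.88) for Aqp6, 0.04 (SE 0.34) for Aqp7, and 0.25 (SE 0.30) for Aqp11, with an edgeR adjusted p of 0.9999 for each. Leaving out WT replicate 1, which leaves the WT replicate 2 library alone, edgeR called Aqp2 (2.68, adjusted p = 0.00026) and Aqp6 (2.47, adjusted p = 0.0813), in a fit that called 16.1% of all genes. Leaving out WT replicate 2 instead, it called Aqp4 (1.41, adjusted p = 0.0634), with 2.37% of all genes. In the heart, Aqp1 stood at 131.9 and 183.1 RPKM in WT and 140.8 and 228.3 in KO, with a KO difference of 0.21 on the log2 scale (95% interval -0.65 to 1.06). Aqp4 (0.51, SE 0.37), Aqp7 (0.15, SE 0.30), and Aqp8 (0.09, SE 0.83) did not differ beyond their spread either. The heart replicates differed in depth, with 17959542 and 15897446 total counts in replicates 1 of WT and KO and 36090637 and 41763236 in replicates 2.

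Whether the KO difference changed with the organ was tested as an interaction in the fit of all libraries. No member was called, and 0% of the 23159 genes were. The smallest unadjusted p among the members was that of Aqp7 (0.0897, adjusted p = 1), and that of Aqp1 was 0.274. Without the filter on low counts, edgeR called Aqp2, Aqp4, Aqp7, and Aqp8, together with 973 of 36620 genes. The KO difference shared by the organs was also not called for any member, and 0% of all genes reached an adjusted p under 0.1. For Aqp1 it was 0.52 (SE 0.16, adjusted p = 1), and its mean was higher in KO in 5 of 5 organs. It was the only member with an unadjusted p under 0.05 in that test, as were 3.26% of all genes.

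Genes with the most similar pattern were sought by Pearson's r of log2(RPKM + 0.1) over the 20 libraries among 14636 genes, as a description. The points share organs, with 4 libraries each. For Aqp2 these were Slc5a2 (r = 0.996) and Cldn19 (0.994), and for Aqp6 Scnn1b (0.996) and Pantr2 (0.995), all highest in the kidney. Aqp2 and Aqp6 themselves had an r of 0.988, the only one above 0.9 among the 36 pairs of members, and the most negative was that of Aqp7 and Aqp9 (-0.859). Aqp9 was closest to Tfr2 (0.982), Mst1 (0.979), and Wfdc21 (0.977), and Aqp8 to Ahsa2 (0.939), Rmdn2 (0.929), and Aard (0.921), all of the liver. Aqp11 was closest to Akr1c19 (0.988), Grtp1 (0.978), and Lmbrd2 (0.977), and Aqp7 to Fam20b (0.969), Sema3b (0.965), and Slc6a8 (0.965), all highest in the small intestine. Aqp3 was closest to Dao (0.977), Erich2 (0.968), and Scg5 (0.958), and Aqp4 to Rab3ip (0.921), Zfp704 (0.915), and Tln2 (0.913), all highest in the kidney. The closest genes of Aqp1, Katnal1 (0.953), Dnajc18 (0.949), and Bmp6 (0.946), were highest in the heart.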

How the data were processed

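The authors trimmed paired reads with cutadapt, mapped them with HISAT2 2.1.0, and deposited raw counts per Ensembl gene of GRCm38 from featureCounts 2.0.1, with the merged exon length (other than a measured value). The submitters' processing notes name mm10. The stored command has no strand or read pair option, whereas the methods state stranded counting of pairs, and 54.92% to 59.84% of counts from 10 to 50 were even. Counts are thus not independent molecules. Values per library are RPKM after TMM normalization on these lengths. All 20 columns of counts were used.

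Libraries were grouped by the organ, genotype, and replicate number of their labels. edgeR 4.0.16 (R 4.3.3) was run with filterByExpr and robust quasi-likelihood tests across all genes, within each organ for KO against WT, and over all libraries for organs, interaction, and shared effect. The thresholds follow the methods, which name DESeq2; DESeq2 1.42.0 was an alternative. The others were RLE and upper quartile factors, no filter, 10 counts in every library, 1 fit of all libraries, WT libraries only, TPM, transcript length, a replicate block, and each library left out. The fits were also run on simulated counts, with large changes set in genes of many counts and the same spread for all genes. Low counts, small changes, and genes of wide spread were not covered. Figures used Python 3.11.15 with matplotlib 3.10.9. Promoters were RefSeq windows of GRCm38.p6.

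Members and the 22 lists of pathways and cell type markers were chosen with earlier results of these data known. The genes named are the members, other family genes, the 3 genes most like each member, and the most abundant gene and up to 3 with the smallest p of each list. Slc10a2, Gata4, Alas2, Rhag, Avpr2, Scnn1b, Fxyd4, and further marker genes of the plots were named beside them after their values were seen. Fits that leave out a spleen library for the erythroid list, transcript length, and the alternatives of the interaction and shared effect were added after seeing the data. Some genes that these rules name are not reported here. Bisulfite data were not analysed here.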

Additional observations from a re-analysis of the deposited data

Results flagged for a closer look

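Aqp11 was listed for opposite directions in 2 organs. Its KO levels were under every WT level in the liver (log2 fold change -0.18) and over every WT level in the kidney (0.25). This difference was not tested for the pair of organs alone, and the interaction of all 5 organs for Aqp11 had an unadjusted p of 0.932 and an adjusted p of 1 in edgeR. Single libraries lay far from the other 3 of their organ by Dixon's criterion in 4 of 40 cases of a member and an organ with any count. These were Aqp2 in the spleen (0.304 RPKM in KO replicate 1 from 19 counts, 0 in the others), Aqp3 in the liver (0.058 RPKM in WT replicate 2 from 2 counts, 0 in the others), Aqp8 in the spleen (0.496 RPKM in WT replicate 2 from 30 counts), and Aqp9 in the kidney (0.110 RPKM in WT replicate 2 from 11 counts). All 4 organ means were under 1 RPKM. Chance gives about 1 in 20 for continuous values, which does not hold for Aqp2 and Aqp3 here, since 3 libraries at 0 meet the criterion by construction.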

How the results depend on the processing

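Both the 2 libraries a group and the low counts of some members limit these values. Without the filter on low counts 1 member was called in the liver (Aqp4, with 0.477% of all genes) and 1 in the spleen (Aqp1, with 1.04%). In that setting 4 members had an interaction of organ and genotype, where 973 of 36620 genes had one. In the spleen 1 was called (Aqp1) with 10 counts in every library (0.628% of all genes) and with DESeq2 (1.35%). Of the members' orders over the 5 organs, 5 of 9 were the same in WT libraries alone. For Aqp1 the WT mean of the heart (157.5 RPKM) stood above that of the kidney (155.3), so that its highest organ changed. Heart came before small intestine for Aqp8, liver before kidney for Aqp11, and heart before spleen for Aqp2. Each library was also left out in turn, which left 1 library in its group. The direction of the KO difference turned in some of these fits. In the small intestine the log2 fold changes ran from -0.27 to 0.70 for Aqp1, -2.06 to 2.04 for Aqp3, -2.33 to 1.36 for Aqp4, -9.13 to 6.46 for Aqp8, and -0.70 to 1.48 for Aqp11. They ran from -0.40 to 0.44 for Aqp9 in the liver and from -0.22 to 1.02 for Aqp9 in the spleen. In the kidney they ran from -0.040 to 1.41 for Aqp4, -0.050 to 2.47 for Aqp6, and -0.045 to 0.15 for Aqp7, and in the heart from -0.18 to 0.54 for Aqp1, -0.18 to 0.44 for Aqp7, and -1.72 to 0.93 for Aqp8. The labels name no animal or batch shared by same-numbered libraries, and with 2 pairs an organ the pairing was not established. The column headers of both heart replicates 2, the deeper heart libraries, carry an added "pre" that no other header has. Its meaning is not given. Deviations of same-numbered WT and KO libraries correlated with an r of 0.587 (small intestine), 0.397 (heart), 0.14 (kidney), 0.0456 (liver), and -0.0027 (spleen). In the fit with the replicate block, the value turned to 0.021 for Aqp9 in the liver and to -0.38 for Aqp8 in the heart. Aqp1 in the spleen had 1.28 (adjusted p = 0.115 in edgeR). With this block 0 members were called in each organ. Of all genes, 0.127% were called for liver, 0.228% for spleen, 0.0361% for heart, and 0% for small intestine and kidney. In the small intestine the block gave -0.14 (SE 0.56) for Aqp3, -0.56 (SE 0.90) for Aqp4, and 1.06 (SE 1.34) for Aqp8. The causes were not tested.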
